A study of Mus musculus with 2 samples.

Results

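The AP-2 transcription factors Tfap2a, Tfap2b, Tfap2c and Tfap2e were followed through single-cell RNA-seq of the adult mouse vomeronasal organ (VNO), the organ of the nasal septum that detects pheromones. These 4 genes were taken by name from the 32285 genes counted, and Tfap2d was read beside them as the other member of the family. The data were 2 droplet-based libraries of dissociated whole VNO from wild-type C57BL/6J male mice at P60, the only condition in the series. The labels call the tissue wild-type and name no transgene or treatment. A total of 5 organs was dissociated, and how they were divided between the libraries was not given in the sources used here.

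The libraries held 12814 and 11270 barcodes with 108005626 and 95442231 unique molecules (UMIs). The filter left 10591 cells, 5694 and 4897 per library, with medians of 6668 and 6649 UMIs. The libraries shared 33 barcode sequences, 3 of them among the kept cells. Doublets were called in 1.19% and 2.39% of the kept cells, where the rate set for the caller was 8%, so uncalled doublets may remain. An unnamed cluster of 225 cells came almost wholly from library 1 (221 cells), and it entered no test. Levels are given as CPM, which scales the UMIs of each gene to a total of 1000000 in the cells concerned. Error ranges on a level or a share are exact 95% Poisson or binomial intervals, which cover counting error only. Where a gene had 0 UMIs, the share allowed is 3 cells over the cells read, a different rule from those intervals.

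AP-2 proteins bind DNA as dimers through a helix-span-helix domain, and their best known site is a GC-rich palindrome. Tfap2a and Tfap2c act early in the neural crest and in surface ectoderm, where they switch on genes of stratified epithelium. Tfap2e is known for its expression in the olfactory system, including the vomeronasal sensory neurons (VSNs) of the basal layer. VSNs form 2 classes, the apical neurons that use V1R receptors and the G protein subunit Gnai2, and the basal neurons that use V2R receptors and Gnao1. Both arise throughout life from dividing progenitors, through Neurog1+ and Neurod1+ precursors and Gap43+ immature neurons, to mature Omp+ neurons.

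In the GENCODE annotation of GRCm38, Tfap2a lies on the minus strand of chromosome 13 (40715302 to 40738376), Tfap2b on the plus strand of chromosome 1 (19208914 to 19238576), Tfap2c on the plus strand of chromosome 2 (172549593 to 172558622) and Tfap2e on the minus strand of chromosome 4 (126716006 to 126736240). The longest transcript of each has 7 exons. Tfap2a is overlapped by 3 genes of the opposite strand (Gm26688, Gm47061 and Gm47067), and the strand setting of the counting was not given in the sources used here. The 250 bases before the RefSeq start of Tfap2e (chr4:126736270-126736519, minus strand, GRCm38.p6) and of a Tfap2a transcript (chr13:40734921-40735170, minus strand, GRCm38.p6) are shown because Tfap2e stood out in the basal branch and Tfap2a in the epithelium. Capitals mark E-boxes (CANNTG, the same on both strands), the motif bound by basic helix-loop-helix factors such as Neurod1.
Tfap2e: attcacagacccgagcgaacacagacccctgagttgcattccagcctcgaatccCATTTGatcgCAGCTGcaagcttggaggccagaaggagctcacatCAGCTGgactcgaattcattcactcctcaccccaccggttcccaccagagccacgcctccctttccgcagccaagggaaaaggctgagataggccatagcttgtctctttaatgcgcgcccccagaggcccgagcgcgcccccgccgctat
Tfap2a: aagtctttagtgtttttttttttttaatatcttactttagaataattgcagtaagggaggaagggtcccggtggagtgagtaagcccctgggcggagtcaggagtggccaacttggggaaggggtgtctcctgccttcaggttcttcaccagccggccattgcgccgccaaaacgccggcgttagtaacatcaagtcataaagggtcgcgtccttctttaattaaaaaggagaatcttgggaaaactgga
The Tfap2e window held 3 E-boxes and the Tfap2a window 0. Of 32851 RefSeq promoter windows of the same length, 66.2% held an E-box. The AP-2 palindrome (GCCNNNGGC, the same on both strands) was in neither window and in 13.7% of all windows.

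Cells were clustered without the AP-2 genes and their listed cofactors, epidermal factors and targets, so that no member chose the groups. Each group was named for marker genes, and each name means cells like that type. The 1060 basal epithelial cells raised all 7 of their markers, among them Krt5, Krt14 and Trp63. The 42 progenitors raised Sox2, Kit, Mki67, Top2a and Cdk1, and also the keratins Krt5, Krt14, Krt15 and Krt17 and some markers of supporting cells. The 16 Krt5 UMIs of the progenitors all lay in 1 cell. The 37 cycling precursors raised these progenitor markers with Neurog1 and Neurod1, and also markers of fibroblasts and macrophages. Neurod1 was found in 98.8% of the 83 precursors, and Omp in 98.2% of the 109 mature basal and 99.8% of the 596 mature apical VSNs. Between precursors and immature neurons lay 2 clusters called basal-side (66 cells, Meis2 in 19.7%) and apical-side (65 cells, Meis2 in 100%), Meis2 being the transcription factor of apical VSNs. The basal-side cluster raised fewer than 2 of the basal branch markers by the fold used for naming, and its place rests on Meis2. Gnao1 was in 90.9% of its cells, but also in 81.9% of precursors, 73.8% of apical-side and 69.4% of later apical cells, and Gnai2 was in 87.9% of basal-side cells. The immature basal neurons formed 2 clusters. The 99 earlier cells had Omp in 5.05% and V2R receptors at 513 CPM, and the 53 later cells had Omp in 18.9% and V2R receptors at 2428 CPM. The later cluster also raised the endothelial markers Pecam1, Eng, Cdh5, Cldn5 and Emcn, and the V1R gene Vmn1r72 was among its most raised genes. The earlier cluster also raised some markers of glands and olfactory ensheathing cells.

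The members fell into 3 patterns. Tfap2a and Tfap2c were found in keratin-rich epithelium, glands and fibroblasts and were nearly absent from the neuronal lineage. Tfap2e was found in the basal branch of neurons. Tfap2b was found as 1 UMI in 1 cell of the 10591, an olfactory ensheathing-like cell, and Tfap2d had 0 UMIs, which allows a share of up to 0.0283% of cells with a UMI. At this depth neither Tfap2b nor Tfap2d could be followed further.

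Tfap2a, a regulator of neural crest and epidermis, had 433 UMIs in 380 cells, 332 of which held a single UMI. Its level in basal epithelial cells was 14.6 CPM in library 1 and 13.5 CPM in library 2, with a UMI in 10.7% of cells (8.87% to 12.7%). In the Krt13 cluster, a second Krt5+ epithelial population of 257 cells, it was 15.9 and 19.9 CPM. The 769 non-sensory epithelial cells had 14.3 and 15.7 CPM. Both library values of the Krt13 cluster lay above those of the other 2 groups, while its summed level of 17.6 CPM (13.2 to 23.1) overlapped theirs, 14.1 CPM (11.7 to 16.8) and 14.9 CPM (12.4 to 17.7), in the counting intervals. A further Krt5+ cluster of 71 cells with markers of division had 7.05 and 18.9 CPM, a spread that covered the other 3. Lower levels were found in fibroblast-like cells with Dpt (6.93 and 12.7 CPM) or Cytl1 (8.37 and 10.1 CPM) and in gland-like cells (1.23 and 3.43 CPM). An unnamed cluster of 155 shallow cells (median 1103 UMIs) with non-sensory epithelial and ciliated markers was not placed in this order. It held 11 Tfap2a UMIs among 230375 and 226603 UMIs in the 2 libraries, so its level may lie above those listed. The 4 epithelial groups held 74.4% of all Tfap2a UMIs in 20.4% of the cells.

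Along the neuronal lineage the Tfap2a signal stopped. From progenitors to mature neurons of both branches, 3 UMIs were found in 1343 cells, 0.693% of the Tfap2a UMIs. They were 1 UMI in a cycling precursor and 2 in mature basal neurons. The 42 progenitors had 0 UMIs, which allows a share of up to 7.14% of cells, and the 83 precursors had 0, which allows up to 3.61%. The apical branch had 0 UMIs in 854 cells, which allows up to 0.351%. Macrophage-like cells, which should lack the gene, also had 0 in 1686 cells, at a lower median depth of 4513.5 UMIs against 8215 in basal epithelial cells. The background was not 0 in every immune group. All immune groups together had 7 UMIs in 2979 cells, 0.547 CPM (0.220 to 1.13). Of these, 6 lay in the 365 dendritic-like cells, a level close to that of gland-like cells.

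Tfap2c, which acts with Tfap2a in ectoderm and also in trophoblast and germ cells, had 425 UMIs in 360 cells. Its order of levels was another one. Fibroblast-like cells with Cytl1 stood first, at 25.1 and 37.7 CPM, with a UMI in 40 of the 174 cells. Gland-like cells followed at 10.9 and 14.2 CPM, basal epithelial cells at 9.29 and 12.3 CPM, non-sensory epithelial cells at 7.89 and 11.7 CPM and the Krt13 cluster at 8.83 and 8.41 CPM. The last 4 overlapped in their library values or counting intervals, and the Cytl1 fibroblasts lay above each of them in both libraries. Fibroblast-like cells with Dpt had 2.52 and 4.77 CPM. Tfap2c had 3 UMIs in the 1343 cells of the lineage, 1 each in a cycling precursor, an apical-side cell and a mature apical VSN, and 0 in the 1686 macrophages.

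Tfap2a and Tfap2c shared groups, and few cells held both. Both were found in 43 cells, 11.3% of the cells with Tfap2a and 11.9% of those with Tfap2c. Among basal epithelial cells, 10 of the 113 with a Tfap2a UMI also had Tfap2c (8.85%), against 8.03% of those without Tfap2a. The shares with and without Tfap2a were 13% and 8.06% in the Krt13 cluster, 13.6% and 8.95% in non-sensory epithelial cells and 23.8% and 20.7% in gland-like cells. The counting intervals overlapped in each of the 4 groups. With 1 UMI in most positive cells, a share of cells with both genes is a lower limit at this depth. Across 25 named groups the 2 levels correlated at Pearson's r = 0.808 on log2(CPM + 1), a description over groups that share the same 2 libraries. Tfap2e correlated with Tfap2a at r = -0.34 and with Tfap2c at r = -0.36.

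**Figure D1:**
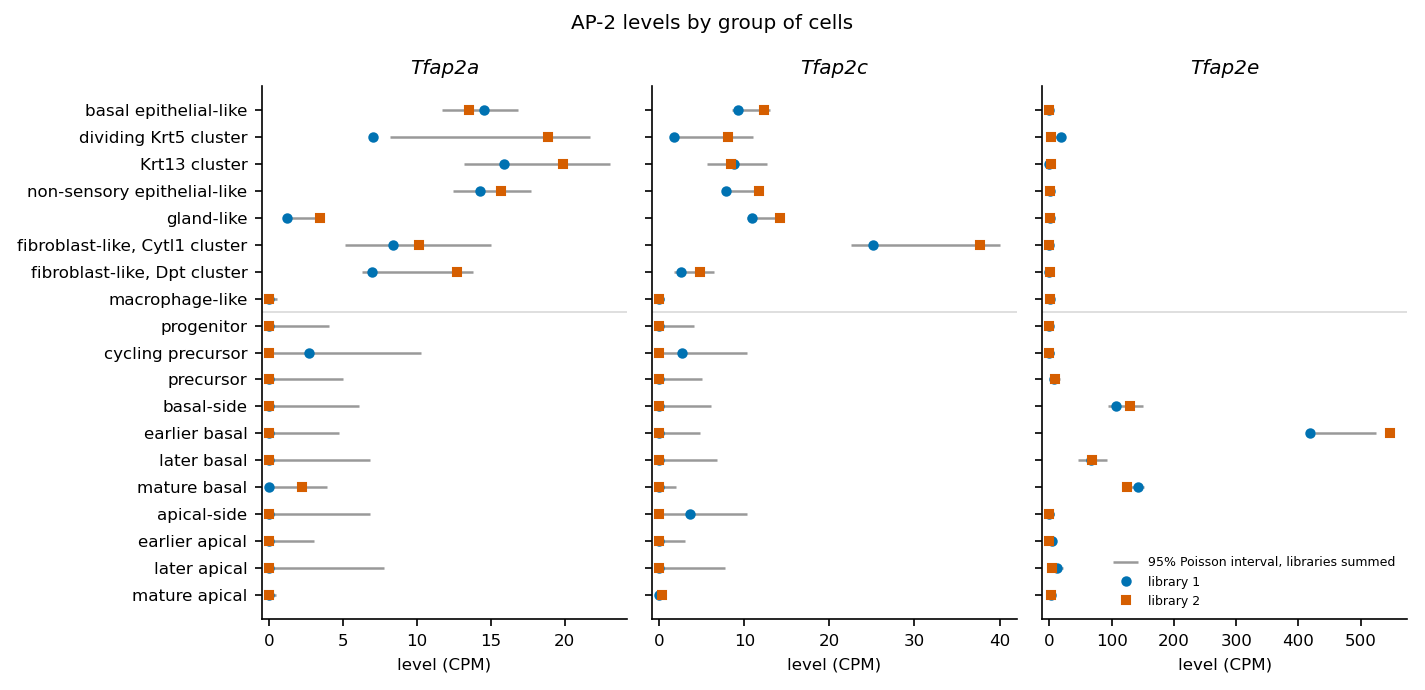
Levels of Tfap2a, Tfap2c and Tfap2e in CPM (horizontal axes, a different range in each panel) by group of cells. Points are the 2 libraries and grey lines the 95% Poisson interval of the libraries summed. Tfap2a and Tfap2c lie to the right in the epithelial and fibroblast groups above the line and near 0 in the lineage below it, and Tfap2e rises in the basal branch, to 418 and 547 CPM in earlier basal cells.

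Basal epithelial cells against progenitors asked where the epithelial members stop. Over 12835 genes, edgeR called 5157, a background of 40.2% (23.4% higher and 16.8% lower in basal epithelial cells), and the median change of all genes was 0.21 on the log2 scale. Tfap2a and Tfap2c reached the 10 UMIs needed for a test only through the basal epithelial cells, so their values are given without a test. Tfap2a had 69 and 54 UMIs against 0 and 0, at least 4.28-fold higher against the floor of 3 UMIs in the summed progenitors. Tfap2c had 44 and 49 UMIs against 0 and 0, at least 3.24-fold higher. Median depth was 8215 UMIs in basal epithelial cells and 18147 in progenitors. All p-values given below measure the spread between these 2 libraries, which may be technical, because nothing says that they came from separate mice.

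Among epidermal factors and described targets of AP-2, more genes were higher than lower in basal epithelial cells. Of 14 epidermal factors, 13 were tested, 9 were higher and 0 lower, with a median log2 difference of 2.30. Sfn, the 14-3-3 sigma protein of stratified epithelia, was at 4392 and 4120.2 CPM against 263 and 156 CPM (log2 4.84 ± 0.22 (SE), edgeR adjusted p = 1.12e-18). Perp, a desmosome component, was at 578 and 568 CPM against 36.2 and 47.2 CPM (log2 4.40 ± 0.24). The Kruppel-like factor Klf4 was higher by 4.28 ± 0.23 on the log2 scale, and Cebpb, a factor of keratinocyte differentiation, by 4.18 ± 0.21. Cebpa, Hes1, Klf5 and Grhl2 were higher by 3.69, 2.21, 2.07 and 1.44. The listed genes were kept out of the clustering like the AP-2 genes, but genes that vary with them were not.

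Of 11 described AP-2 targets other than Kit, a marker that named the progenitors, 10 were tested, 6 were higher and 0 lower, with a median log2 difference of 1.97. Kit itself went the other way, with 0 and 1 UMIs (0 and 0.251 CPM) against 42 and 22 UMIs (66.0 and 79.9 CPM), a difference that the naming of the progenitors used. The growth factor receptor Egfr had 333 and 312 UMIs against 0 and 0, at least 22.5-fold higher. The hyaluronan receptor Cd44 had 189 and 219 UMIs against 0 and 0, at least 14.2-fold higher. Egfr and Cd44 count among the 6, though both passed the count filter only through the basal epithelial cells. Desmoplakin (Dsp), the anchor of desmosomes, was at 217 and 219 CPM against 69.2 and 54.5 CPM. The integrin Itga6 and the cell cycle inhibitor Cdkn1a were also higher, by 2.52 and 1.62 on the log2 scale. The receptor Erbb2 (2.34) also counts among the 6, and it too passed the count filter only through the basal epithelial cells. Its log2 difference ranged from 1.90 to 7.12 over the alternatives. The call counts of these lists stand beside the background of 40.2%.

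Cofactors of AP-2 went both ways. All 12 were tested, and 4 were higher and 5 lower in basal epithelial cells, with a median of 0.60. Over all genes 23.4% were higher and 16.8% lower. Kctd1, a BTB-domain protein that binds AP-2 and represses its activity, was at 145 and 150 CPM against 14.1 and 21.8 CPM (log2 3.70 ± 0.30, edgeR adjusted p = 3.8e-12). The coactivator Cited4 was lower, at 2.32 and 2.51 CPM against 12.6 and 32.7 CPM (log2 -2.41 ± 0.57). Yeats4, a chromatin reader described as an AP-2 coactivator, and the tumour suppressor Apc were lower by log2 changes of -1.98 and -1.51. The coactivator Cited2, the repressor Kctd15, the AP-2 binding protein Wwox and nucleophosmin (Npm1) were called at 0.76, 1.21, 2.12 and -0.41, but each call ended without 1 library sum. Cited2 fell to 0.61 without library 1 of the basal epithelial cells and 0.58 without library 2 of the progenitors. Kctd15 ranged from 0.99 to 1.72 without any of the 4 sums. Wwox was at 1.90 and Npm1 at -0.33 without library 2 of the basal epithelial cells, and 2.05 and -0.26 without library 1 of the progenitors.

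Precursors against progenitors was the next step of the lineage. No member reached the 10 UMIs needed for a test. Tfap2e had 3 and 3 UMIs in the 83 precursors (7.53 and 8.73 CPM) and 0 and 0 in the progenitors, at least 2.46-fold higher against the floor. The 6 UMIs lay in 5 cells, 6.02% of precursors (1.98% to 13.5%). Macrophages, the background for free RNA, had Tfap2e in 0.237% of cells (0.0647% to 0.606%). After thinning to 5000 UMIs, 1 of 81 precursors and 3 of 725 macrophages kept a UMI, so that no order was read from the shares. Of the 5 precursors with Tfap2e, all 5 had Neurod1 and 3 had Meis2, and 0 had Bcl11b, Hey1 or Notch1. Among the 78 precursors without Tfap2e, 98.7% had Neurod1, 50% Meis2, 33.3% Bcl11b, 16.7% Hey1 and 28.2% Notch1. The exact interval for 0 of 5 reaches 52.2%, so 5 cells do not tell these shares apart. In the 79 progenitors and cycling precursors Tfap2e had 0 UMIs, which allows a share of up to 3.80%.

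In this step edgeR called 25.2% of 9861 genes, 12.2% higher and 13% lower in precursors. Of 11 epidermal factors tested, 6 were lower and 1 higher, with a median log2 change of -1.50. The Notch target Hes1 was at 15.1 and 20.4 CPM against 197 and 258 CPM (log2 -3.75 ± 0.34, edgeR adjusted p = 5.05e-08). Sfn and Klf5 were lower by changes of -3.19 and -2.99. Grhl2, counted among the 6, had 0 and 0 UMIs against 10 and 3, at least 3.53-fold lower. It passed the count filter only through the progenitors. The calls for Klf4 (-1.50), Ovol1 (-2.67) and the 1 higher gene, Cebpa (2.13), each depended on a library. Without library 1 of the progenitors Klf4 was at -0.95 and Cebpa at 1.64, and without library 1 or 2 of the precursors Ovol1 was at -2.60 or -2.73, all past the threshold no longer.

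Of the described targets other than Kit, 6 were tested in this step, 1 was higher and 3 lower (median -1.62). Over all genes 12.2% were higher and 13% lower. Cdkn1a, the p21 inhibitor of cell division, was at 1462 and 1045 CPM in precursors against 91.2 and 50.8 CPM (log2 3.92 ± 0.25). E-cadherin (Cdh1) was lower by a change of -4.44 and the simple-epithelium keratin Krt18 by -2.73. Dsp was lower by -1.67, a call that ended without library 1 of the progenitors (-1.44). Of 11 cofactors, 2 were higher and 2 lower, beside the same shares of all genes. Kctd1 rose to 158 and 154 CPM (log2 3.09 ± 0.35) and Cited2 to 337 and 314 CPM from 78.6 and 61.7 CPM. Cited4, counted among the lower, had 0 and 0 UMIs against 8 and 9, at least 4.61-fold lower. It passed the count filter only through the progenitors. Npm1 was lower by -1.78.

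Tfap2e, the AP-2 gene of basal VSNs, had 966 UMIs in 345 cells, up to 20 in 1 cell. The basal branch held 725 of these UMIs, 75.1% in 3.09% of the cells. The basal-side cluster had 107 and 130 CPM, with a UMI in 37.9% of its 66 cells (26.2% to 50.7%). Earlier basal cells had 418 and 547 CPM, with a UMI in 81.8% (72.8% to 88.9%). Later basal cells had 66.1 and 67.9 CPM, with a UMI in 39.6% (26.5% to 54.0%). Mature basal VSNs had 143 and 125 CPM, with a UMI in 86.2% (78.3% to 92.1%). The order of levels was earlier, mature, basal-side and later, and neither libraries nor counting intervals of earlier cells reached those of the other 3. The mature and basal-side levels overlapped in both. The basal-side and later levels did not overlap, though the interval of the later cells (46.7 to 92.4 CPM) ended just under that of the basal-side cells (94.0 to 151 CPM).

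Shares and levels gave different orders, and mature cells were deeper (median 17162 UMIs against 8317, 9677 and 9291.5 in earlier, later and basal-side cells). At 5000 UMIs per cell Tfap2e was found in 75.3% of 89 earlier cells, 44.8% of 105 mature cells, 35.4% of 65 basal-side cells and 27.5% of 51 later cells, which is the order of the levels. The thinning left out 10, 4, 1 and 2 shallower cells.

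The cells within a cluster also differed. In earlier basal cells the median was 3 Tfap2e UMIs, 50.5% of cells held 3 or more and 23.2% held 6 or more. In later basal cells the median was 0, and 7.55% held 3 or more. Mature basal cells were more even, with a median of 2, quartiles of 1 and 3, and 35.8% at 3 or more. Of the basal-side cells, 18.2% held 3 or more while the median was 0. None of the positive cells in these 4 groups was a called doublet, though the caller marked fewer cells than the rate set for it.

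**Figure D2:**
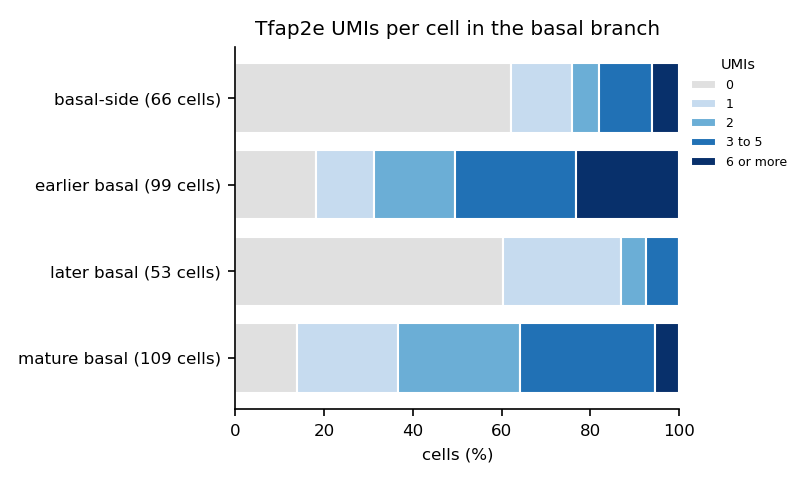
Share of cells (horizontal axis, %) by the number of Tfap2e UMIs they held, in the 4 groups of the basal branch. Earlier basal cells held 6 or more UMIs in 23.2% of cells, and later basal and basal-side cells mostly held 0.

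The stage genes place Tfap2e along the basal branch, and since several of them named the groups they are given without a test. Neurod1, the precursor factor, was in 98.8% of precursors, 57.6% of basal-side cells and 0 of 99 earlier basal cells. Tfap2e was in 6.02%, 37.9% and 81.8% of the same groups. Within the basal-side cluster Neurod1 was found in 11 of the 25 cells with Tfap2e (44%, 24.4% to 65.1%) and in 65.9% of the 41 cells without it (49.4% to 79.9%), and these intervals overlap. The growth cone gene Gap43 was in 77.3%, 78.8% and 100% of basal-side, earlier and later cells and in 45.9% of mature cells. Its level was 513 and 502 CPM in earlier cells and 2209 and 2073 CPM in later cells, where that of Tfap2e was low. Omp came in last, from 18.9% of later cells to 98.2% of mature cells.

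The zinc finger factor Bcl11b was already in 31.3% of precursors and in 75.8% of basal-side cells, 80% of those with Tfap2e and 73.2% of those without it. Meis2 was in 50.6% of precursors, 19.7% of basal-side cells and 7.07% of earlier basal cells. In basal-side cells Meis2 was found in 4 of 25 cells with Tfap2e (16%) and in 9 of the 41 without. In earlier basal cells it was in 5 of 81 with Tfap2e (6.17%) and 2 of 18 without (11.1%). The shares with and without Tfap2e overlapped in their counting intervals in both groups.

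**Figure D3:**
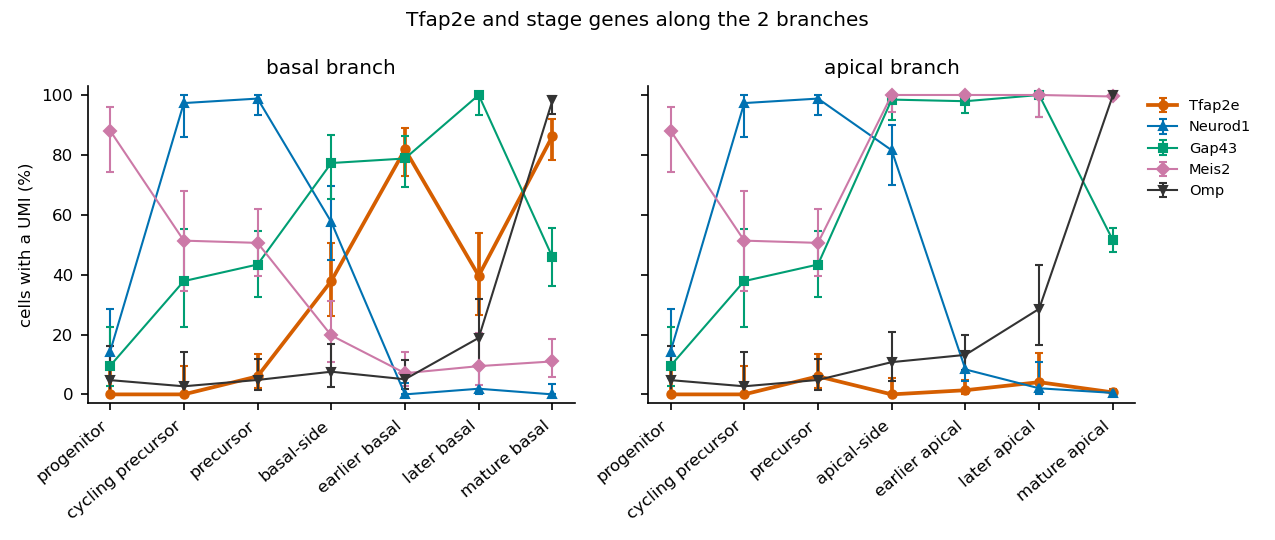
Share of cells with a UMI (vertical axis, %) for Tfap2e, Neurod1, Gap43, Meis2 and Omp from progenitors to mature neurons of the basal (left) and apical (right) branch. Bars are exact 95% binomial intervals over cells of both libraries. Tfap2e rises where Neurod1 falls, to 81.8% of earlier basal cells, dips to 39.6% in later basal cells and stays at or under 6.02% along the apical branch.

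In the apical branch Tfap2e had 28 UMIs in 8 of 854 cells (0.937%, 0.405% to 1.84%). The 65 apical-side cells had 0, which allows a share of up to 4.62%. In earlier and later apical cells 3 and 4 UMIs lay in 2 cells each. In mature apical VSNs 21 UMIs lay in 4 of 596 cells, and 2 of these cells held 18 of the 21. Those 4 cells had V1R receptors at 5321 CPM and V2R receptors at 118 CPM, and V1R receptors were at 13220 CPM in the 592 mature apical cells without Tfap2e. Gnao1 was in 2 of the 4 cells (6.76% to 93.2%) and in 4.73% of the 592. Median depth was 19771.5 UMIs in the 4 cells and 13503.5 in the 592. None of the 4 was a called doublet. Basal epithelial cells had 0 Tfap2e UMIs in 1060 cells, which allows up to 0.283%.

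Immature basal against immature apical neurons asked whether the branch difference precedes maturity. Tfap2e was the 1 member that reached 10 UMIs. It did so only through the basal cells, so its values are given without a test. Its UMIs were 209 and 196 in the basal and 6 and 1 in the apical libraries, levels of 264 and 373 CPM against 6.01 and 1.46 CPM, which did not overlap. The fitted fold was 75.2 (log2 6.23 ± 0.33). Over all 10589 genes edgeR called 7.53%, 3.89% higher and 3.64% lower. Median depth was 8650.5 and 8922 UMIs. With the library as a block edgeR called 1326 genes in place of 797. The log2 difference of Tfap2e was 7.64 without library 1 of the immature apical cells, and 5.69 to 6.44 without any other of the sums. It was 7.06 with thinned cells and 7.0 with the AP-2 genes kept in the clustering. In comparisons added after seeing the data, it was 7.53 with the earlier cells of both branches only and 2.96 with the later cells only.

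Mature basal against mature apical neurons asked the same at the end of the lineage. Tfap2e had 136 and 111 UMIs against 10 and 11, levels of 143 and 125 CPM against 2.14 and 3.23 CPM. The fold was 53.2 (log2 5.73 ± 0.23, edgeR adjusted p = 2.4e-05), where 9.36% of 12722 genes were called, 5.52% higher and 3.84% lower. The groups did not overlap. Tfap2e was the 1 member tested. Tfap2a had 2 UMIs and Tfap2c 0 in the mature basal cells, and the mature apical cells had 0 and 1. Mature basal cells were deeper, with a median of 17162 UMIs against 13507.5. With the library as a block edgeR called 2471 genes in place of 1191, and Tfap2e stayed among them.

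Mature against immature basal neurons asked whether Tfap2e is kept. It was lower in mature cells by a log2 change of -1.21 ± 0.18 (edgeR adjusted p = 0.000366), from 264 and 373 CPM to 143 and 125 CPM, where 34.4% of 10822 genes were called, 18.5% higher and 15.9% lower. The direction turned with the cells chosen, an alternative added after seeing the data. Against earlier basal cells alone the change was -1.85 (edgeR adjusted p = 1.28e-07), and against later basal cells alone it was 1.09 (edgeR adjusted p = 0.00859). The later cluster, on which this turn rests, also raised endothelial markers. From earlier to later to mature cells, the levels in the 2 libraries were 418 and 547, then 66.1 and 67.9, then 143 and 125 CPM.

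Cells with 5% to 10% mitochondrial UMIs, left out of the groups, were given the group of their nearest neighbours as a further reading. The 25 immature basal cells among them had Tfap2e at 391 and 329 CPM, and the 41 mature basal cells at 73.9 and 111 CPM. In 476 basal epithelial cells of this kind Tfap2a was at 14.9 CPM (10.7 to 20.1) and Tfap2c at 7.08 CPM (4.33 to 10.9), and Tfap2e had 0 UMIs. Gland-like cells had more Tfap2a here, 9.37 CPM (at least 6.56 by its interval) against 2.22 CPM (1.41 to 3.34) in the cells kept.

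Outside the named branches Tfap2e had 127 UMIs in 63 of 295 cells of an unnamed deep cluster (median 28086 UMIs), at 14.9 and 12.5 CPM. That cluster was led by V1R and V2R genes of both classes. It raised markers of mature VSNs and also Fezf2 and Cyp2a5, markers of supporting cells. In 2 small groups nearly all UMIs lay in called doublets, 12 of 13 in the dividing Krt5+ cluster and 15 of 16 in a cluster with immune markers. In 2 unnamed clusters of shallow cells (medians of 1122 and 1124.5 UMIs) it was at 9.18 and 9.70 CPM and at 9.80 and 19.1 CPM, from 13 and 11 UMIs. Endothelial, T cell, gland, non-sensory epithelial and fibroblast groups were at or under 1.25 CPM.

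Genes of the AP-2 network had smaller differences between the branches than Tfap2e. In immature neurons 2 of 11 cofactors were higher in the basal branch and 0 lower (3.89% and 3.64% of all genes), with a median of 0.13 against -0.01 for all genes. Kctd1 was at 261 and 232 CPM against 91.2 and 111 CPM (log2 1.35 ± 0.17, edgeR adjusted p = 5.04e-05), and Cited2 at 238 and 234 CPM against 103 and 118 CPM (log2 1.15 ± 0.16). Cited2 was not called with later cells only (0.40). In mature neurons 2 of 11 were higher and 0 lower (5.52% and 3.84% of all genes), Kctd1 at 198 and 282 CPM against 47.1 and 41.4 CPM (log2 2.52 ± 0.19) and Cited4 at 23.1 and 20.2 CPM against 3.85 and 5.29 CPM (log2 2.34 ± 0.31). From immature to mature basal cells 5 of 11 cofactors were lower and 1 was higher, where 15.9% of all genes were lower and 18.5% higher. Cited2 was lower by a change of -3.15, the acetyltransferase Crebbp by -1.28 and Npm1 by -0.71. The related acetyltransferase Ep300 (-0.97) lost its call without any 1 of the 4 sums (-0.83 to -1.11), and the higher Cited4 (1.65) without library 1 of the immature cells (0.95).

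Among described targets Krt18 and Dsp were higher in the basal branch at both stages. Krt18 was at 743 and 711 CPM in immature basal against 223 and 213 CPM in immature apical cells (log2 1.78 ± 0.13), and at 1201 and 1384 CPM in mature basal against 123 and 144 CPM in mature apical cells (log2 3.36 ± 0.11, edgeR adjusted p = 9.93e-06). Dsp was at 28.3 and 34.8 CPM in mature basal against 8.13 and 10.6 CPM in mature apical cells (log2 1.85 ± 0.25). In immature cells Dsp differed by 0.90, a call that ended without library 1 of the basal (0.76) or the apical cells (0.76). The Dsp call also ended with DESeq2 (0.89), thinned cells (0.85) and later cells only (1.11). Cdkn1a was higher in immature basal cells by 0.79, and was not called with later cells only (0.51). That made 3 of 6 targets higher and 0 lower (median 0.02), where 3.89% of all genes were higher and 3.64% lower. In mature cells 2 of 8 were higher and 0 lower (median 1.39), where 5.52% of all genes were higher and 3.84% lower. In mature against immature basal cells Krt18 was higher (0.85) and Dsp lower (-1.88), the 2 of 5 that were called beside Kit (0 and 0 UMIs against 4 and 6). Over all genes 34.4% were called in this comparison, 18.5% higher and 15.9% lower.

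Of the epidermal factors, 1 of 9 differed between immature branches, where 7.53% of all genes were called, 3.89% higher and 3.64% lower. It was Ovol2, a zinc finger repressor that keeps epithelial identity. Ovol2 was at 111 and 139 CPM in basal against 28.1 and 23.3 CPM in apical cells (log2 2.28 ± 0.25, edgeR adjusted p = 9.36e-06). In mature neurons 5 of 10 were higher in basal cells and 1 was lower, where 5.52% of all genes were higher and 3.84% lower. Ovol2 differed by 0.90, Hes1 by 2.43, Sfn by 2.33, Cebpb by 0.91 and Klf5 by 2.12, the last at 8.38 and 10.1 against 2.35 and 2.06 CPM and not called without any 1 of the 4 sums (2.00 to 2.25). Perp was lower in basal cells by a change of -0.89. From immature to mature basal cells 5 of 9 were higher and 1 lower, where 18.5% of all genes were higher and 15.9% lower. Hes1, Sfn, Perp and Cebpb were higher by 2.62, 2.55, 1.81 and 0.93. Cebpa was lower (-2.07), a call lost without library 2 of the mature cells (-1.60) or library 1 of the immature cells (-1.92).

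**Figure D4:**
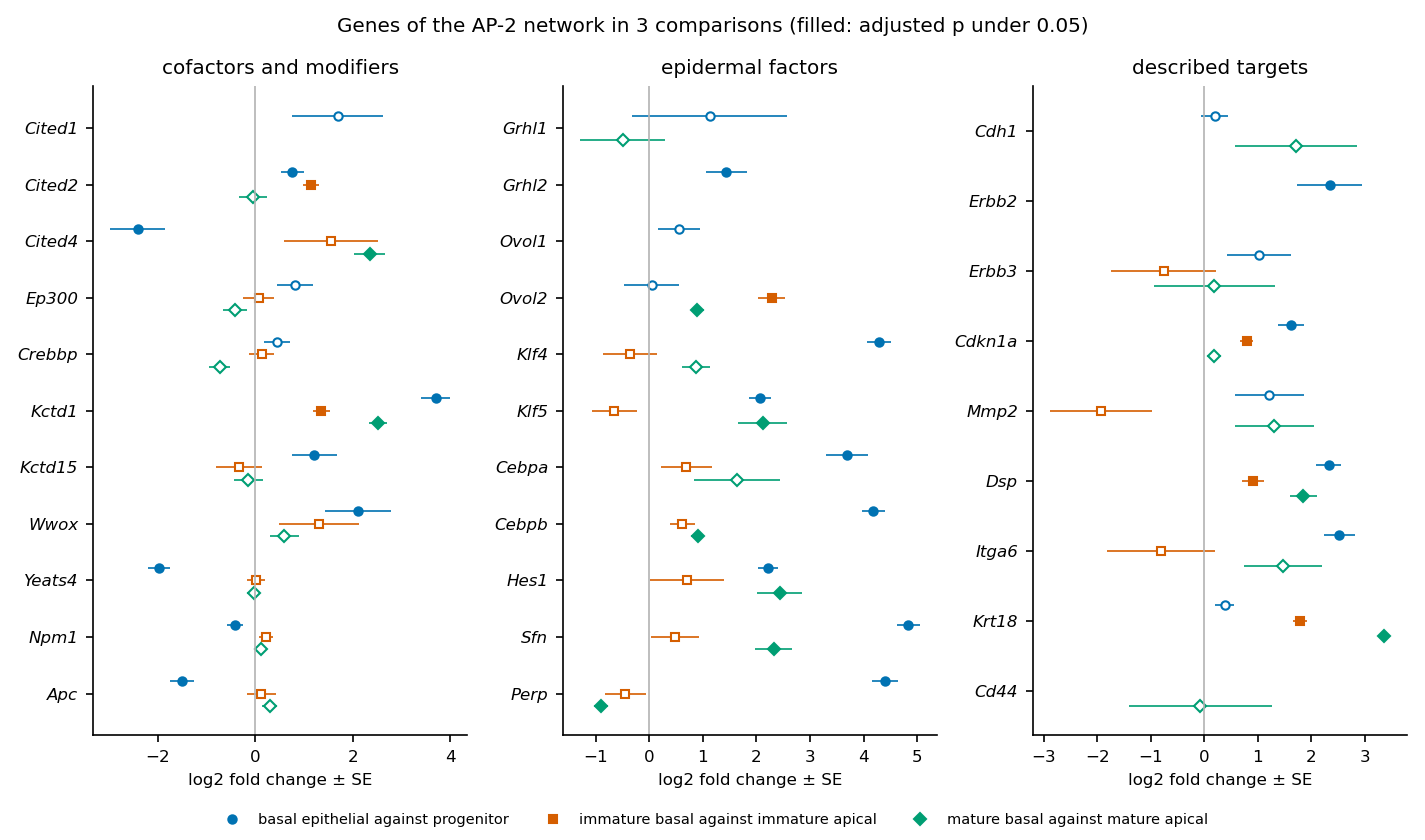
Log2 fold changes (horizontal axes, bars are SE) of cofactors, epidermal factors and described targets of AP-2 in 3 comparisons, the first group named against the second. Filled points passed an adjusted p of 0.05 in edgeR, and genes at 0 in a group, not tested or not reported here are not drawn. The epidermal factors and targets drawn lie to the right in basal epithelial cells against progenitors, Sfn at 4.84, and Krt18 has the largest difference between mature branches among the targets drawn, 3.36.

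Receptor genes were read in basal cells with and without Tfap2e. In mature basal cells V2R genes were at 12154 and 8690 CPM in the 94 cells with Tfap2e and at 9662 and 13386 CPM in the 15 without, which overlap. In earlier basal cells they were at 337 and 519 CPM in the 81 cells with Tfap2e and at 1125 and 839 CPM in the 18 without, lower with Tfap2e in both libraries. In later basal cells they were at 3543 and 1282 CPM in the 21 cells with Tfap2e and at 2019 and 2390 CPM in the 32 without, in opposite directions in the 2 libraries. V1R genes in mature basal cells were at 809 and 538 CPM with Tfap2e and at 13.7 and 21.6 CPM without. The 15 mature cells without Tfap2e held only 3 V1R UMIs and were shallower, with a median of 10752 UMIs against 17857. In later basal cells V1R genes with Tfap2e were at 18.9 CPM in library 1 and 3446 CPM in library 2, a value that rests on library 2. These splits use the UMIs of Tfap2e itself in single cells and were not tested.

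The genes whose levels over the 25 named groups were most like those of each member were taken from 14716 genes with at least 100 UMIs. For Tfap2a they were the non-coding RNA Carmn (r = 0.930), Egfr (0.926), the prostaglandin E synthase Ptges (0.922), the potassium channel Kcnj15 (0.918) and podoplanin, Pdpn (0.908). For Tfap2c they were the aldehyde oxidase Aox3 (0.904), Kcnj15 (0.902), the growth factor receptor Fgfr2 (0.898), the anchoring fibril collagen Col7a1 (0.893) and the inhibin subunit Inhbb (0.874). For Tfap2e they were E330013P04Rik (0.905), the receptor Vmn2r1 (0.894), Shisa8 (0.871), the PDZ-domain protein Gipc3 (0.847) and Fam189a1 (0.836). Vmn2r1 and Shisa8 are among the markers that named the basal branch. Egfr, an epithelial growth factor receptor and a described AP-2 target, was the 1 gene found both in a fixed list and among the genes most like a member.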

How the data were processed

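Single-cell RNA-seq was analysed from 2 libraries of whole VNO. The authors dissociated the tissue, captured cells on the 10x Genomics 3' platform, counted UMIs with Cell Ranger 4 on mm10 and merged the libraries with aggr (its depth setting: not given in the sources used here). The deposited table holds counts of UMIs per gene and barcode (raw, whole numbers, with no normalization in the values), and the number after the dash of each barcode gave its library.

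The filter kept cells that had 200 to 9000 genes and no more than 5% of UMIs from mitochondrial genes. Clustering used Seurat 5.3.0 in R 4.3.3 (2000 variable genes, 30 principal components and resolution 0.8 for all cells, then 15 components at 0.8 and 1 for the lineage) with the genes of the 4 AP-2 lists removed from the variable genes (Tfap2e was the AP-2 gene among them). Clusters were named from markers raised 4-fold (all cells) or 1.5-fold (lineage). Doublets were called with Scrublet in scanpy 1.11.5. Members, lists and markers were chosen with earlier results of these data known, and names of clusters were given after seeing their markers.

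UMIs were summed per library and group and tested with edgeR 4.0.16 (TMM, glmQLFit, glmQLFTest) for genes that reached 10 UMIs over the sums of a comparison, with Benjamini-Hochberg adjustment over all genes and a threshold of 0.05. Only the groups compared entered a fit. Standard errors came from the log2 change and the F statistic. Genes named are the members, the whole lists and, for each member with at least 30 UMIs, the 5 genes most like it, except 2 listed genes that enter the counts and medians of their lists and are not reported here. The fit was checked on simulated counts. Groups of the same number come from 1 library, a shared capture, and their deviations correlated across genes at 0.0639 to 0.0849. Alternatives were a library block in the edgeR model, DESeq2 1.42.0, no count filter, all lineage groups in 1 fit, leaving out each library sum, thinning to 5000 UMIs, other cell filters and other clusterings. Between libraries, chi-square per degree of freedom was 1.69 to 5.32 within groups, set against the sampling of single UMIs. Each library holds other cells, which also raises it, so it does not measure the difference between captures. The libraries shared 33 barcode sequences, so they are not copies of 1 library, and each entered the fits as 1 sample. They may be 2 captures of 1 suspension. Positions are from GENCODE on GRCm38, and promoter windows from RefSeq on GRCm38.p6.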

Additional observations from a re-analysis of the deposited data

How the results depend on the processing

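Of the values given for named genes under the alternatives, 1016 kept their direction and their side of the threshold, 89 kept the direction and no longer passed, and 1 reversed (Tfap2e in mature basal cells against later immature basal cells, 1.09). These counts, and the ended calls below, include genes that passed the count filter only through 1 group, such as Tfap2a and Tfap2c. The call for Tfap2e between the mature branches held under every alternative that gave a value. The library as a replicate block ended no call of a named gene. Thinning ended 20 calls of named genes and DESeq2 13, among them Cited2, Kctd15, Wwox and Npm1 in basal epithelial cells, and every other alternative but the left-out sums ended 6 or fewer. The counts of genes called depended on the setting. For basal epithelial cells against progenitors the count of 5157 became 3369 with DESeq2, 2650 with thinned cells and 1700 with the dividing Krt5+ cluster, and 3466 to 4777 with 1 library sum left out. For precursors against progenitors 2489 became 920 with DESeq2 and 1334 thinned, and 1653 to 2464 with 1 sum left out (1653 without library 1 of the progenitors). For the immature branches 797 became 291 with DESeq2, 1326 with the library as a block, 527 thinned and 169 with later cells only, and 306 to 749 with 1 sum left out (306 without library 1 of the immature basal cells). For the mature branches 1191 became 2166 with no filter on low counts, 2471 with the block and 448 thinned, and 1255 to 1392 with 1 sum left out. For mature against immature basal cells 3722 became 1815 with DESeq2, 2052 thinned and 1942 against later cells only, and 3203 to 3538 with 1 sum left out. The causes were not tested, other than that thinning, later cells and left-out sums use fewer UMIs or cells by construction. The Tfap2e level of mature basal cells, 134 CPM, was 112 CPM after thinning. At the lower clustering resolution of 0.6 no progenitor group was found, so that alternative gave no value for the progenitor comparisons. Depth limits what can be said of Tfap2a, Tfap2c and Tfap2e in single cells and of Tfap2b and Tfap2d anywhere, and the 42 progenitors are the smallest group tested.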
